A study of Homo sapiens with 6 samples.

Results

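The heat shock chaperones described here are 10 genes, HSPA1A, HSPA1B, HSPA8, HSP90AA1, HSP90AB1, DNAJB1, HSPH1, HSPB1, HSPD1 and HSPE1. They were chosen by gene symbol, by a rule that sets no threshold on measured values, and all 10 were found among the 59074 genes listed. Levels are in CPM, the authors' read count of a gene scaled to the depth of its library, and all 10 chaperones were among the 14294 genes whose average level reached 1 CPM. The cells were the human glioblastoma lines LN-229, T98G and U251, and each line gave 1 siControl library, transfected with a non-target siPOOL, and 1 siHOTAIRM1 library, transfected with a siPOOL against the long non-coding RNA HOTAIRM1. A siPOOL is a complex mixture of siRNAs, and all 6 cultures were transfected with Lipofectamine RNAiMAX and harvested after 72 h. The labels name no heat treatment, so the levels are those of transfected cells in culture. The comparison asked which RNAs changed after transient knock-down of HOTAIRM1.

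Heat shock proteins bind unfolded or partly folded proteins. Proteins of the HSP70 class, here HSPA8, HSPA1A and HSPA1B, hold and release such clients in cycles driven by ATP. J-domain proteins such as DNAJB1 deliver the clients, HSPH1 exchanges the nucleotide, and HSP90 takes over many kinases and receptors at a late stage of folding. HSPB1 is a small heat shock protein that holds clients without ATP, and HSPD1 with its lid HSPE1 folds proteins inside mitochondria. The transcription factor HSF1 induces many of these genes under stress by binding heat shock elements, repeats of the unit NGAAN in alternating orientation, and glioblastoma, like many tumours, is known for high levels of several of them without any heat.

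The promoters of the 10 genes are shown first because the heat shock element is the sequence that these genes are known for. RefSeq promoter windows of GRCh38.p14, each from 250 bases before to 50 bases after an annotated start, were searched for GAANNTTC and TTCNNGAA, the 2 ways in which neighbouring units can face each other. Both motifs read the same on both strands, and matches of 1 motif may overlap matches of the other. At least 1 motif was found for 8 of the 10 genes (80.0%), against 16.2% of all 27305 genes with a window. Overlapping matches of both motifs, which make 3 units in a row, were found for 4 of the 10 genes, against 0.608% of all genes. Over windows rather than genes, 13.5% of all 35116 windows held either motif and 0.490% held 3 units, and of the 16 windows of the chaperones 9 and 4 did. A match describes these letters only. No motif was found in the windows of HSPH1 and HSPE1. The HSPE1 window runs from 197500129 to 197500428 around a RefSeq start, whereas GENCODE v44 begins this gene at 197500140. Bases before that earlier start were thus mostly not searched for HSPE1.

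The following stretches, each of at most 30 bases, show upstream matches of these 8 genes, written 5′ to 3′ on the strand of the gene with every base of a motif in capitals. All lie upstream of a start given in RefSeq, and further matches in the windows of HSPA8, HSP90AB1 and DNAJB1 are not shown. For HSPA8, HSP90AB1, DNAJB1 and HSPD1 the region around the motifs overlaps an exon of another annotated transcript of the same gene in GENCODE v44. For the other 4 genes it overlaps no exon of the chaperones or of the read-through gene HSPE1-MOB4. Exons of other genes were not checked.
HSPA1A, chr6:31815426-31815455, plus strand: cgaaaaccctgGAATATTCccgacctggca
HSPA1B, chr6:31827622-31827651, plus strand: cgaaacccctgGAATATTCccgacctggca
HSPA8, chr11:123062171-123062199, minus strand: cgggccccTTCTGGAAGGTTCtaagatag
HSP90AA1, chr14:102087104-102087133, minus strand: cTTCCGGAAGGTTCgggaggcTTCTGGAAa
HSP90AB1, chr6:44247823-44247851, plus strand: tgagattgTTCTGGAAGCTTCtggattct
DNAJB1, chr19:14518426-14518455, minus strand: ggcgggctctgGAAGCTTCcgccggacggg
HSPB1, chr7:76302480-76302509, plus strand: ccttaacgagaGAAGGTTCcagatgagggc
HSPD1, chr2:197500062-197500090, minus strand: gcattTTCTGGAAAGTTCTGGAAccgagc
HSPA8, HSP90AA1, HSP90AB1 and HSPD1 are the 4 genes with 3 or more units in a row. HSPA1A and HSPA1B carried the same motif at almost the same distance, at positions -106 and -105 from their starts, and their promoter windows were 92.0% identical. HSPD1 and HSPE1 are read in opposite directions from starts 105 bases apart on chromosome 2. The HSPD1 motifs shown belong to a further HSPD1 start in RefSeq, at position 197499840. They lie downstream of the HSPD1 start at 197500274, from which the 105 bases are counted. They also lie upstream of position 197500140, where GENCODE v44 begins HSPE1, and outside the HSPE1 window searched.

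The libraries held 52.3 to 104 M reads, as worked out from the value of 1 read, and 3 reads were worth 0.0289 to 0.0574 CPM. HOTAIRM1 was lower in the siHOTAIRM1 library of every line, where it decreased by 52.2% in LN-229, decreased by 38.5% in T98G and decreased by 51.1% in U251 (limma on log2(CPM + 1), log2 change −0.54, SE 0.12, adjusted p = 0.0146). Of 8 glial and glioblastoma markers, VIM, CD44 and EGFR were above 44 CPM in all 6 libraries. In contrast, NES was at 0.956 and 0.866 CPM in T98G, and GFAP, an astrocyte marker, was above 1 CPM only in U251. SOX2 was at 0.0146 and 0.0001 CPM and S100B at 0.0001 CPM in the siControl and siHOTAIRM1 libraries of T98G. OLIG2 was at most 1.69 CPM in every library. Of 8 markers of other cell types, PTPRC, RBFOX3 and EPCAM were at most 0.248 CPM in every library. The summed level of these 8 markers was 10.7 to 29.8 CPM in the siControl and 4.58 to 16.0 CPM in the siHOTAIRM1 libraries, mostly from SYT1 in LN-229 and U251 and from CD68 in T98G, and of the 3 that were tested SYT1 (log2 change −0.83, adjusted p = 0.00138) and CD68 (−0.62, adjusted p = 0.0223) were lower after knock-down in limma. The calls of HOTAIRM1, SYT1 and CD68 were lost with no replicate block, with no filter on low values, with libraries rescaled to the same sum, and without the T98G pair, where no gene passed. The listed genes took 42.9% to 67.2% of a library's reads, and this share went from 50.2% to 42.9% in T98G and from 67.2% to 55.9% in U251 after knock-down. The part of marker levels and of this share in the results was not tested.

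The constitutive HSP70, HSPA8, and the HSP90 proteins were the most abundant of the 10. Divided by the length of the canonical transcript, and averaged over both libraries of a line, the HSPA8 level was 532 CPM per kb in LN-229, 517 CPM per kb in T98G and 613 CPM per kb in U251. HSP90AB1, the constitutive HSP90, stood at 266, 230 and 402 CPM per kb, HSP90AA1, the inducible one, at 207, 110 and 285 CPM per kb, and HSPD1 at 122, 78.9 and 210 CPM per kb. These 4 genes held ranks 1 to 4 in this order in every line. The lower ranks varied. HSPE1 was at 73.0, 48.4 and 152 CPM per kb and HSPH1 between 16.4 and 26.0 CPM per kb, HSPB1 at 27.7, 47.7 and 60.1, and DNAJB1 at 22.2, 21.8 and 66.8. HSPA1B was at 18.1, 52.7 and 42.3 CPM per kb, and HSPA1A at 14.4, 26.1 and 2.59 CPM per kb, the lowest level of the 10 in LN-229 and U251.

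**Figure D1:**
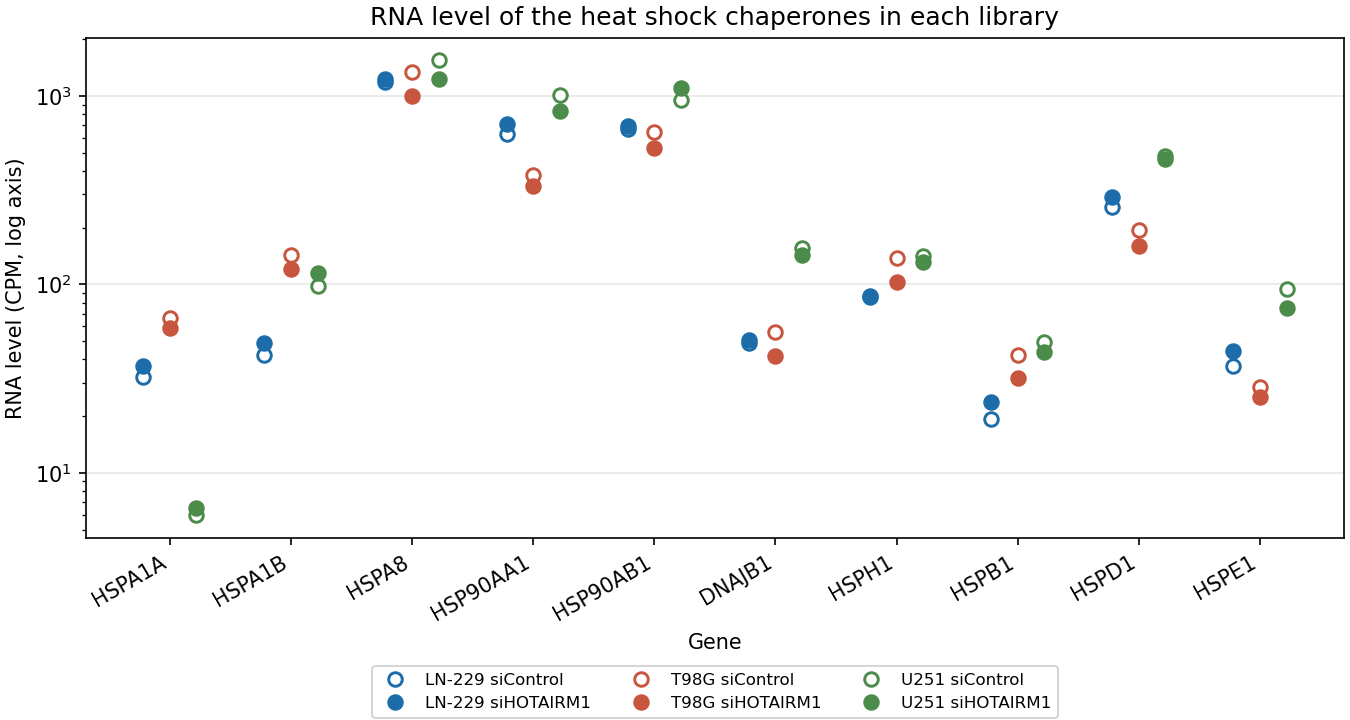
RNA level of each of the 10 chaperones (x axis) in CPM on a log axis (y axis), with 1 point per library, open for siControl and filled for siHOTAIRM1, and 1 colour per cell line. HSPA8 lies between 1003 and 1542 CPM in all 6 libraries, and HSPA1A in U251 lies near 6 CPM, far below its level in LN-229 and T98G.

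The cell lines differed in most chaperones. Each line was compared with each other one in the limma fit over all 6 libraries, with the condition as covariate, so that the 2 libraries of a line give its level. Between T98G and LN-229 54.9% of all genes passed an adjusted p of 0.05 and 7 of the 10 chaperones did, 4 of them higher in T98G (24.1% of all genes) and 3 lower (30.8%). Between U251 and LN-229 60.6% of all genes and 8 chaperones passed, 7 higher in U251 (36.7% of all genes) and 1 lower (23.9%). Between U251 and T98G 64.2% of all genes and 6 chaperones passed, 5 higher in U251 (41.0% of all genes) and 1 lower (23.1%). Against these backgrounds none of the counts is read as particular to the chaperones. The labels name no separate cultures, so the p-values rest on the spread between these libraries, and knock-down and control of a line stand in for replicates. In limma that spread is shared between genes of similar level. A gene had 2 residual degrees of freedom of its own, against a median of 32.5 prior ones taken from all genes. Its p-value therefore rests mostly on the spread of other genes.

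HSPA8 differed least. Its level was 1180 CPM in LN-229 siControl, 1230 in LN-229 siHOTAIRM1, 1337 and 1003 in T98G and 1542 and 1233 in U251. The libraries of T98G overlapped those of both other lines. No contrast between lines passed (log2 differences −0.06, 0.19 and 0.25 for T98G to LN-229, U251 to LN-229 and U251 to T98G, adjusted p = 0.879, 0.584 and 0.461 in limma).

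The HSP90 genes were highest in U251 and lowest in T98G. HSP90AA1 was at 628 CPM in the siControl and 708 CPM in the siHOTAIRM1 library of LN-229, at 378 and 334 CPM in T98G, and at 1009 and 834 CPM in U251. None of these lines overlapped. In limma HSP90AA1 was lower in T98G than in LN-229 (log2 difference −0.91, adjusted p = 0.00232) and higher in U251 than in T98G (1.36, adjusted p = 1.25e-05), whereas U251 and LN-229 did not pass (0.46, adjusted p = 0.108). HSP90AB1 was at 668 and 692 CPM in LN-229, 645 and 531 CPM in T98G, and 947 and 1108 CPM in U251. Both U251 libraries were above all others. The log2 difference of HSP90AB1 to T98G was 0.81 (adjusted p = 0.00709) and to LN-229 0.59 (adjusted p = 0.0479). T98G and LN-229 did not pass for HSP90AB1 (−0.22, adjusted p = 0.496). The U251 call of HSP90AB1 against T98G was lost with no filter on low values, with libraries rescaled to the same sum, or without the siHOTAIRM1 library of either line. That against LN-229 was lost under every alternative run except median centring, and the HSP90AA1 call of T98G against LN-229 was lost with no filter or without the siHOTAIRM1 library of LN-229 or of T98G. The ratio of HSP90AB1 to HSP90AA1 CPM was highest in T98G, at 1.70 and 1.59, and was 1.06 and 0.977 in LN-229 and 0.938 and 1.33 in U251.

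DNAJB1, the J-domain partner of HSP70, set U251 apart from both other lines. It was at 49.1 and 50.6 CPM in LN-229, at 56.2 and 41.8 CPM in T98G, and at 156 and 144 CPM in U251, again siControl first. LN-229 and T98G overlapped. In U251 it was 3.0 times its mean level in LN-229 and 3.06 times that in T98G (log2 differences 1.57 and 1.61, adjusted p = 3.34e-09 and 1.84e-09, limma). HSPH1, the HSP110 protein, was at 86.5 and 85.7 CPM in LN-229, 138 and 104 CPM in T98G, and 141 and 132 CPM in U251. LN-229 was lowest, and T98G and U251 overlapped. HSPH1 passed against LN-229 in T98G (0.47, adjusted p = 0.0348) and in U251 (0.66, adjusted p = 0.00324), and not between these (0.19, adjusted p = 0.401). The T98G call of HSPH1 was lost in 6 alternatives, and the U251 call was lost with libraries rescaled to the same sum or without LN-229 siControl or U251 siHOTAIRM1.

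HSPB1 was likewise lowest in LN-229. It was at 19.4 and 23.7 CPM in LN-229, 42.2 and 31.9 CPM in T98G, and 49.5 and 43.9 CPM in U251. No libraries of different lines overlapped. The difference was called against LN-229 in T98G (log2 difference 0.75, adjusted p = 0.000667) and U251 (1.09, adjusted p = 3.51e-06), and U251 against T98G did not pass (0.34, adjusted p = 0.102). Without the siControl library of LN-229 or of T98G the T98G call was lost.

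The mitochondrial pair stood in the same order in the lines, T98G below LN-229 below U251. HSPD1 was at 257 and 290 CPM in LN-229, 194 and 160 CPM in T98G, and 482 and 461 CPM in U251. HSPE1 was at 36.8 and 44.5 CPM in LN-229, 28.7 and 25.3 CPM in T98G, and 94.8 and 74.7 CPM in U251. For both genes the libraries of no 2 lines overlapped. All 3 contrasts passed for both in limma, with log2 differences of HSPD1 of −0.63 (T98G to LN-229, adjusted p = 0.0135), 0.79 (U251 to LN-229, 0.00203) and 1.41 (U251 to T98G, 6.93e-07), and of HSPE1 of −0.57 (adjusted p = 0.00797), 1.04 (7.55e-06) and 1.61 (1.55e-09). The T98G to LN-229 calls of both were lost with no filter and without either siHOTAIRM1 library of these lines, that of HSPE1 also without T98G siControl, and the U251 to LN-229 call of HSPD1 with libraries rescaled to the same sum and without LN-229 siControl. The ratio of HSPD1 to HSPE1 CPM ranged from 5.08 to 6.98 over the 6 libraries. HSPE1 is a short transcript, and 36.3% of its 87-base windows, about the length of a trimmed read, also occur in other genes, mostly the read-through gene HSPE1-MOB4. Listed pseudogenes took 23.3% to 26.8% of the summed CPM of HSPE1 and its pseudogenes and 13.5% to 17.4% of that of HSPD1.

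The stress-inducible HSP70 genes HSPA1A and HSPA1B gave the widest spread. They are neighbours on chromosome 6 in GRCh38, HSPA1A (ENSG00000204389) at chr6:31815543-31817946 and HSPA1B (ENSG00000204388) at chr6:31827738-31830254, with starts 12195 bases apart and canonical transcripts that are 91.2% identical. HSPA1A was at 32.3 and 37.0 CPM in LN-229, 66.6 and 58.8 CPM in T98G, and 5.97 and 6.47 CPM in U251. T98G was highest, U251 lowest, and no lines overlapped. The counting intervals of HSPA1A in U251 were 5.34 to 6.67 and 5.99 to 6.99 CPM (95% Wilson, counting error only). Its mean in T98G was 10.1 times that in U251 (log2 difference of U251 to T98G −3.14, adjusted p = 1.11e-17), and that in LN-229 5.57 times (−2.30, adjusted p = 6.24e-14, limma). HSPA1B followed another order, with 42.2 and 49.0 CPM in LN-229, 144 and 121 CPM in T98G, and 98.5 and 114 CPM in U251. LN-229 was the lowest line here, by a log2 difference of 1.52 to T98G (adjusted p = 1.08e-08) and of 1.20 to U251 (adjusted p = 1.0e-06), and U251 against T98G did not pass (−0.31, adjusted p = 0.140), although it did with libraries centred on their median, rescaled to the same sum, or without T98G siHOTAIRM1.

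The share of HSPA1A in the sum of both genes went with the line rather than with the knock-down. It was 43.3% and 43.0% in LN-229, 31.6% and 32.6% in T98G, and 5.71% and 5.36% in U251, siControl first. Within a line the 95% Wilson intervals of both libraries overlapped, and between lines none did. Of the 2314 87-base windows of the HSPA1A transcript, 1692 (73.1%) also occur in HSPA1B, so the split of most reads between these genes rested on the authors' expectation-maximization quantification. The sum does not depend on the split within the pair. Each transcript shares windows with 3 other genes, its partner included, so reads may also have been split with genes beyond the pair. The sum was 74.6 and 86.0 CPM in LN-229, 211 and 180 CPM in T98G, and 105 and 121 CPM in U251. In limma the sum was higher in U251 than in LN-229 (log2 difference 0.48, adjusted p = 0.0292), the opposite of HSPA1A alone, and lower in U251 than in T98G (−0.79, adjusted p = 0.00058). T98G exceeded LN-229 by 1.27 (adjusted p = 7.13e-07).

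**Figure D2:**
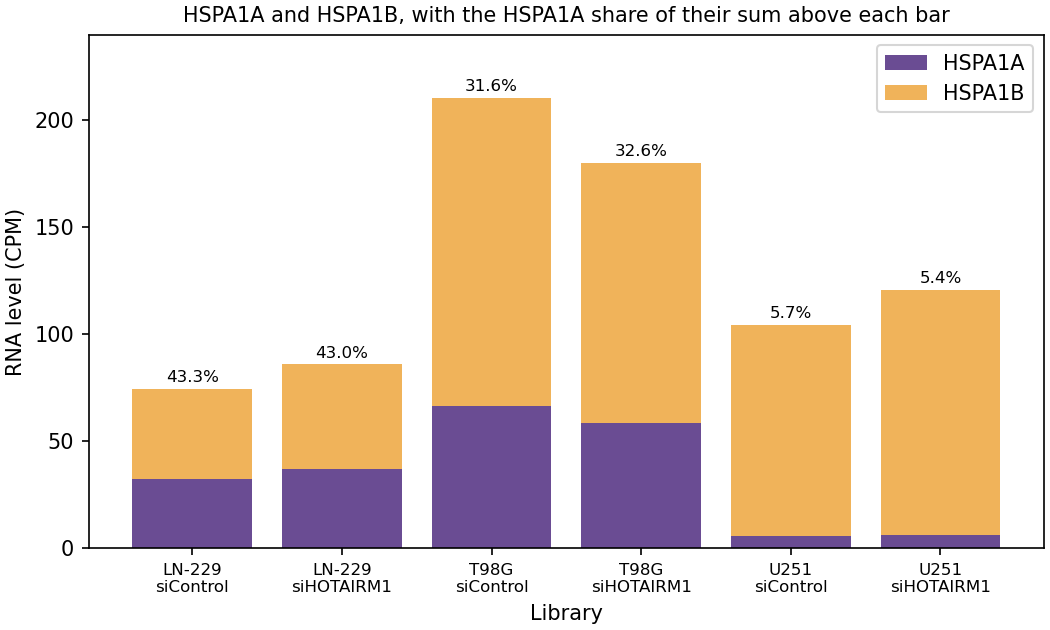
Stacked bars of the HSPA1A and HSPA1B levels in CPM (y axis) in each of the 6 libraries (x axis), with the HSPA1A share of their sum in percent above each bar. The share is near 43% in LN-229, near 32% in T98G and under 6% in U251, and the sum is highest in T98G.

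None of the 10 chaperones passed the test of knock-down over the 3 lines. The fit paired siHOTAIRM1 with siControl within each line, and 286 of 14294 genes passed, 2.0% of those tested, 59 higher and 227 lower. None of the 10 reached an unadjusted p of 0.05 either, which 18.3% of all genes did. The smallest adjusted p among them was 0.575, for HSPH1. With 3 pairs the intervals were wide. HSPA8 had a log2 change of −0.23, with 95% bounds at −0.71 and 0.26, and for HSP90AB1 it was −0.00034, from −0.43 to 0.43. A change anywhere within these bounds is compatible with the data, and the bounds are no limit of detection. The narrower intervals were those of HSPA1A, from −0.25 to 0.33 about a change of 0.04, and of HSPB1, from −0.40 to 0.20 about −0.10.

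The lines did not move together. In LN-229 9 of the 10 were higher in the siHOTAIRM1 library, where 53.3% of all genes were, in T98G 0 of 10 (20.3% of all genes), and in U251 3 of 10 (45.7% of all genes). Each line holds 1 library per condition, so these are values with no test. On the log2(CPM + 1) scale the median gene of the whole table changed by 0.01 (LN-229), −0.19 (T98G) and −0.03 (U251). The median of the 10 chaperones was 0.18, −0.28 and −0.11. Relative to all genes this was 0.16, −0.09 and −0.08, and 16.7%, 64.3% and 58.9% of all genes were at or above the chaperone median. In T98G 3 of the 10 were thus above the median of all genes although all 10 were lower in CPM.

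HSPA8 and DNAJB1 differed little in LN-229 and were lower in T98G and U251. HSPA8 changed by 0.06 (LN-229), −0.41 (T98G) and −0.32 (U251), or 0.05, −0.22 and −0.30 once that median was taken off. DNAJB1 changed by 0.04, −0.42 and −0.12 (limma log2 change −0.16, SE 0.15, adjusted p = 0.588). HSPH1 was the 1 chaperone that was lower in all 3 lines, by −0.01, −0.41 and −0.10 (limma −0.17, SE 0.15, adjusted p = 0.575). Its LN-229 value was smaller than its counting error.

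The HSP90 genes parted in U251. HSP90AA1 changed by 0.17 (LN-229), −0.18 (T98G) and −0.28 (U251), and HSP90AB1 by 0.05, −0.28 and 0.23. In LN-229 both were higher, and in T98G both lower. The limma change of HSP90AA1 was −0.09 (SE 0.20, adjusted p = 0.849). With each library rescaled to the same sum over the genes tested HSP90AA1 changed to 0.056 and HSP90AB1 to 0.15, neither past the threshold. This rescaling moved the median change of all genes from −0.07 to 0.05.

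HSPA1A and HSPA1B had the same signs as each other in each line, higher in LN-229 and U251 and lower in T98G. HSPA1A changed by 0.19, −0.18 and 0.10, and HSPA1B by 0.21, −0.24 and 0.21, in LN-229, T98G and U251. Their sum changed by 0.20, −0.22 and 0.21, with a limma change of 0.06 (SE 0.16, adjusted p = 0.873). In T98G the values relative to all genes were 0.01 for HSPA1A and −0.05 for HSPA1B.

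HSPB1, HSPD1 and HSPE1 were higher in LN-229 and lower in T98G and U251. HSPB1 changed by 0.27, −0.39 and −0.17, HSPD1 by 0.18, −0.27 and −0.06, and HSPE1 by 0.27, −0.18 and −0.34. With the median gene of T98G taken off, HSPE1 was there at 0.01. Over the lines the limma changes were −0.10 for HSPB1 (SE 0.15, adjusted p = 0.772), −0.05 for HSPD1 (SE 0.18, adjusted p = 0.908) and −0.08 for HSPE1 (SE 0.15, adjusted p = 0.808).

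**Figure D3:**
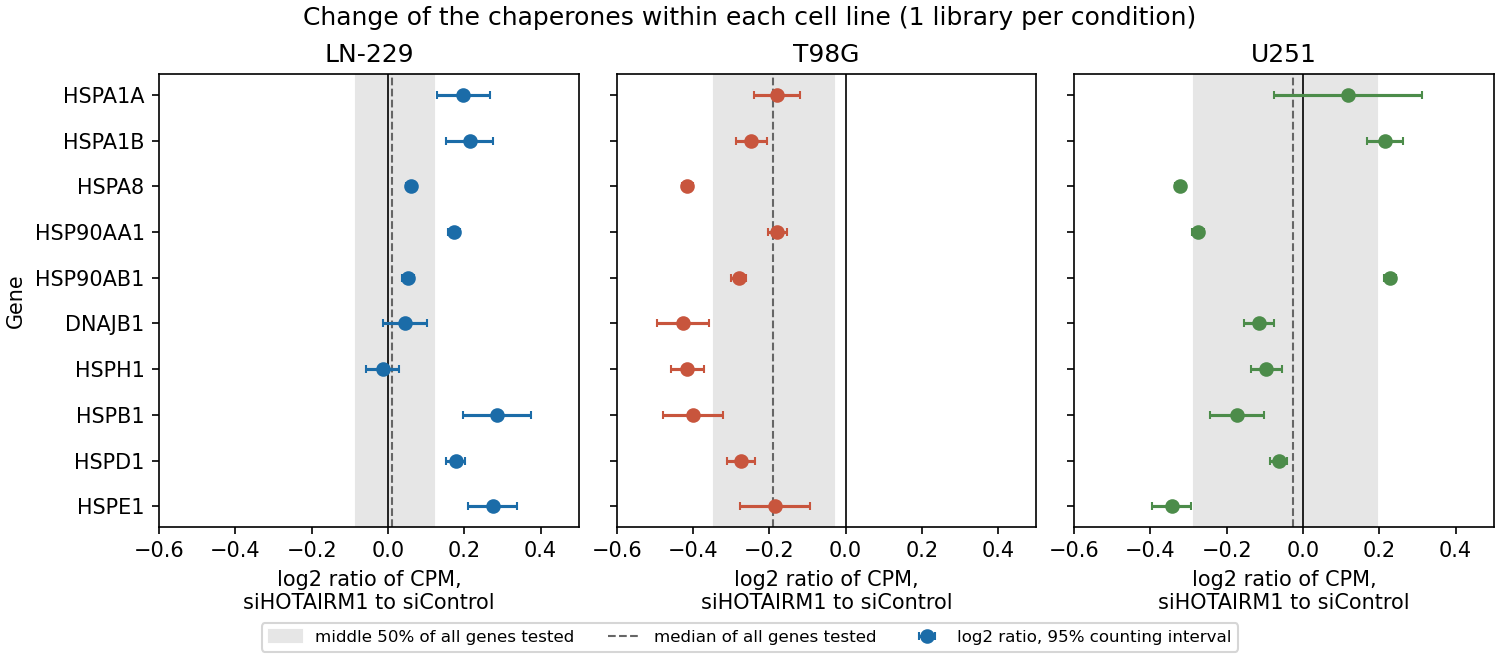
Change of each chaperone (y axis) as the log2 ratio of its CPM in siHOTAIRM1 to siControl (x axis) within each cell line, 1 library per condition, with bars for the 95% counting interval. The dashed line is the median and the grey band the middle 50% of all genes tested on the log2(CPM + 1) scale. In T98G all 10 points lie below 0 but so does the band, and in LN-229 9 of 10 lie above 0.

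Neither of the factors HSF1 and HSF2 passed the knock-down test. HSF1, the main heat shock factor, was at 7.96 and 8.33 CPM in LN-229, 15.8 and 14.0 CPM in T98G, and 16.7 and 14.3 CPM in U251. Its knock-down change was −0.11 (SE 0.14, adjusted p = 0.737, limma). LN-229 was lowest, with log2 differences of 0.80 to T98G (adjusted p = 0.000233) and 0.85 to U251 (adjusted p = 8.96e-05). HSF2, a second factor, was at 8.54 and 9.73, 9.80 and 8.99, and 14.1 and 12.4 CPM, with a knock-down change of −0.04 (SE 0.14, adjusted p = 0.922). HSF2 was higher in U251 than in LN-229 (0.49, adjusted p = 0.0162) and in T98G (0.45, adjusted p = 0.0248). Of the other 2 genes of that list, HSF4 had the largest rise in value (0.33) and HSBP1, which binds HSF1, the largest fall (−0.26), and neither passed.

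The partners of the chaperones were counted in 10 further lists, and no gene of any of them passed the knock-down test. Beside the background given above, these counts were 0 of 5 tested other HSP70 and HSP110 proteins, 0 of 7 nucleotide exchange factors of HSP70, 0 of 14 other J-domain proteins, 0 of 14 co-chaperones of HSP90, 0 of 3 other small heat shock proteins, 0 of 8 subunits of the chaperonin TRiC, 0 of 6 prefoldin subunits, 0 of 9 mitochondrial chaperones and proteases, 0 of 8 further genes of the heat shock response and 0 of 6 chaperones of the endoplasmic reticulum. At an unadjusted p under 0.05, which 18.3% of all genes reached, limma gave 2 lower HSP70 and HSP110 proteins and 2 lower and 1 higher J-domain proteins. It also gave 3 lower TRiC and 3 lower prefoldin subunits, and 2 lower further response genes. Of the list of small heat shock proteins 1 gene was lower, HSPB11, which was listed there by its symbol.

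TRiC, which folds actin and tubulin, and prefoldin, which hands clients to it, had the lowest medians of the 10 lists over the 3 lines, at −0.31 and −0.32. All 8 tested TRiC subunits and all 6 prefoldin subunits were below the median change of all genes in both T98G and U251, and 7 of 8 and 4 of 6 were in LN-229. The share of all genes below that median in both lines was not worked out. These counts are therefore not read as particular to TRiC or prefoldin. The median changes of TRiC were −0.02, −0.47 and −0.39 in LN-229, T98G and U251, and those of prefoldin 0.00, −0.42 and −0.55. The values over the 3 lines ranged from −0.44 for CCT4 (adjusted p = 0.112) to −0.17 for CCT5 and from −0.54 for PFDN4 (adjusted p = 0.0734) to −0.15 for PFDN6. PFDN4 was at 23.2 and 22.3 CPM in LN-229, 15.1 and 11.6 CPM in T98G, and 25.2 and 10.4 CPM in U251.

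Among the other lists the medians over the 3 lines lay between −0.28 and −0.01, against −0.07 for all genes. DNAJB4 had the largest fall in value of the J-domain proteins (−0.46, adjusted p = 0.0792), from 69.9 to 43.1 CPM in U251, and DNAJB5 the largest rise (0.30). HSPA13 was the lowest of the other HSP70 proteins (−0.35) and HSPA12A the highest (−0.01). BAG5 and BAG1, nucleotide exchange factors, were at −0.07 and −0.25, and CHORDC1 and TOMM34, which bind HSP90, at 0.12 and −0.26. CRYAB, alpha-B crystallin, was at 0.06 and HSPB11 at −0.37. In mitochondria GRPEL2, an exchange factor, was at 0.11 and DNAJA3 at −0.25. SERPINH1, a collagen chaperone, was at 0.10. In the endoplasmic reticulum HYOU1 was at 0.10 and DNAJB9 at −0.28, and the list's medians were 0.15, −0.30 and −0.01 in LN-229, T98G and U251.

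**Figure D4:**
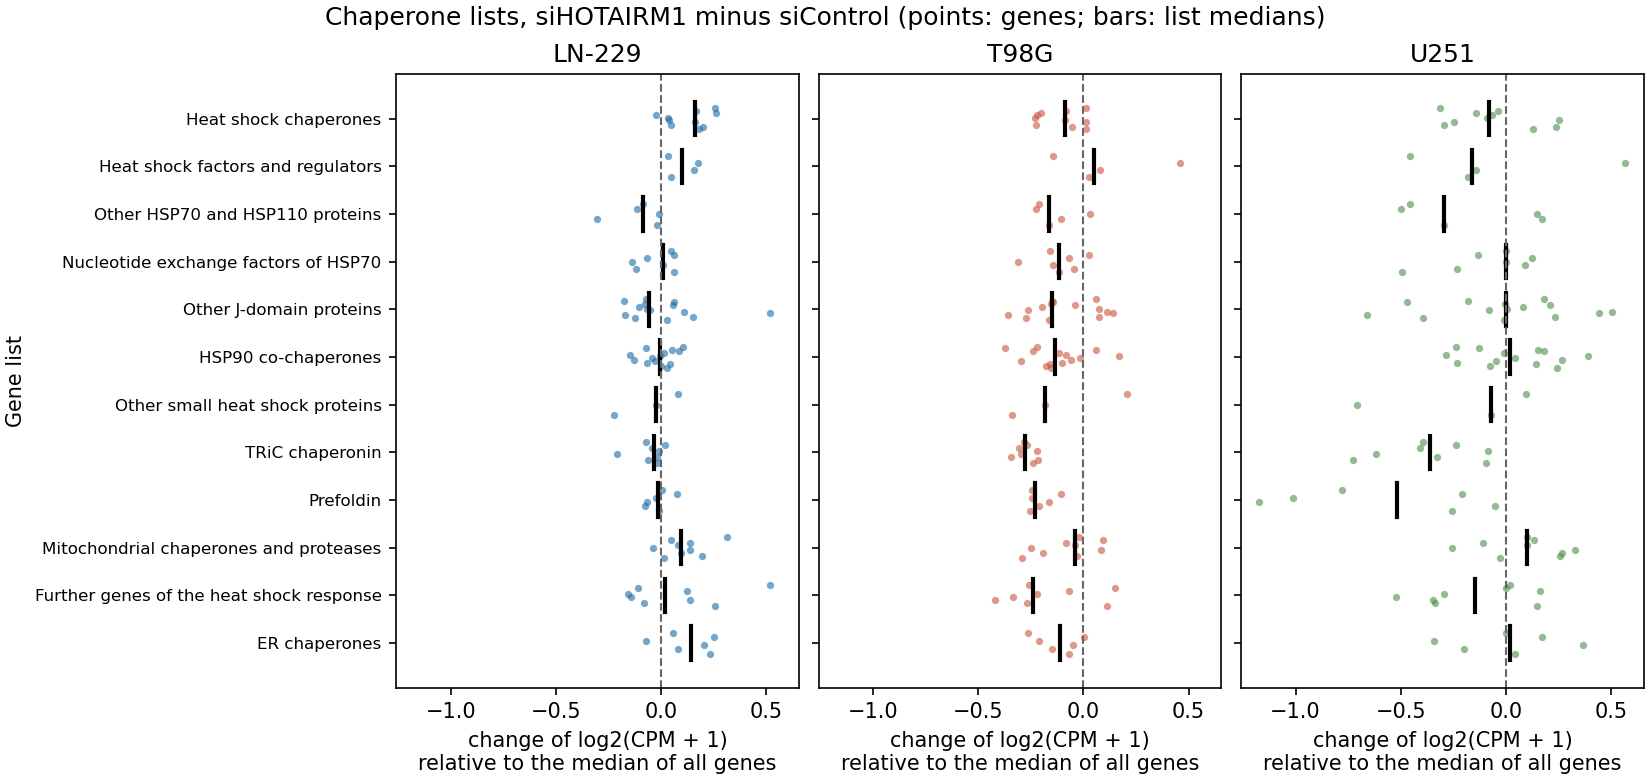
Change of log2(CPM + 1), siHOTAIRM1 minus siControl, relative to the median change of all genes (x axis) for the genes of each list (y axis) in each cell line, with 1 point per gene and a black bar at the list median. The TRiC and prefoldin points all lie below 0 in T98G and U251, and the 10 chaperones have their highest list median in LN-229, at 0.16.

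The genes most like the mean profile of the 10 chaperones over the 6 libraries, by Pearson's r of centred log2(CPM + 1), were ZNF205 (r = 0.998), RAB5C (0.997), CDH24 (0.995), ACLY (0.994) and DDR2 (0.994). These are descriptions over 6 libraries from 3 lines, which share line and depth. RAB5C, an endosomal GTPase, was at 29.1 and 33.6 CPM in LN-229, 44.3 and 32.0 CPM in T98G, and 61.5 and 55.1 CPM in U251. The mean centred profile of the chaperones was −0.29 and −0.14 in LN-229, 0.05 and −0.25 in T98G, and 0.36 and 0.27 in U251. By this mean U251 was highest in both conditions, although HSPA1A was lowest in U251 and HSPA1B was highest in T98G.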

How the data were processed

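RNA of 6 cultures was prepared with the TruSeq RNA v2 kit, which keeps no strand, and sequenced for 101 cycles. Per the labels and the study's methods, the authors aligned reads with STAR 2.4.1d to hg38 in Partek Flow, sent unaligned reads to Bowtie 2, quantified Ensembl genes by expectation-maximization and deposited CPM with 0.0001 added. Only 71.7% to 76.7% of values were whole multiples of 1 read (tolerance 0.02 read), so no count test was run.

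The 14294 genes that averaged 1 CPM or more were tested on log2(CPM + 1), a scale that understates changes of low genes, with limma 3.58.1 (R 4.3.3, variance trend, line and condition as terms) and Benjamini-Hochberg adjustment over all of them, two-sided, threshold 0.05. Same-line libraries deviated together (r = 0.948 to 0.967, against −0.505 to −0.467 for other pairs), the pairing being the cell line of the labels. Intervals and floors (3 reads) cover counting error only. Lengths and shared 87-base windows came from GENCODE v44, and promoter windows from RefSeq.

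The members and lists were chosen by gene name, but with earlier results of these data known. Named genes were the 10 chaperones, HSF1 and HSF2, HOTAIRM1, of each list the called genes and the largest rise and fall, and the 5 most alike profiles. Other genes were named after their values were seen, and 1 gene that this rule names is not reported here. Alternatives were other pseudocounts, filters, scalings and designs, sums with pseudogenes and leaving out libraries. Removal of a transcript-length trend and the sum of HSPA1A and HSPA1B were chosen after seeing the data.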

Additional observations from a re-analysis of the deposited data

Results flagged for a closer look

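For 8 of the 10 chaperones the change on the log2(CPM + 1) scale was positive in 1 cell line and negative in another both as measured and relative to the median change of all genes, and no sample of either line moved the other way because each line has 1 pair of libraries. These differences between lines were not tested. The share of all genes that meets this rule was not worked out, so the count is not read as particular to the chaperones. The change in LN-229 exceeded that in T98G by 0.66 for HSPB1, 0.47 for HSPA8, 0.46 for DNAJB1 and 0.45 for HSPD1. The change in LN-229 exceeded that in U251 by 0.61 for HSPE1 and by 0.45 for HSP90AA1. The change in U251 exceeded that in T98G by 0.51 for HSP90AB1 and by 0.46 for HSPA1B. Relative to the median change of all genes in each line these differences were smaller, 0.57 for HSPE1, 0.46 for HSPB1, 0.41 for HSP90AA1, 0.34 for HSP90AB1, 0.29 for HSPA1B, 0.27 for HSPA8, 0.26 for DNAJB1 and 0.25 for HSPD1.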

How the results depend on the processing

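No chaperone passed the knock-down test under any alternative, the smallest adjusted p being 0.368, without replicate 1 (LN-229). The 286 genes called over all genes became 0 with no replicate block, 683 with a pseudocount of 0.1, 0 with no filter, 501 at a mean of at least 10 CPM, 41 with libraries centred on their median, 0 with libraries rescaled to the same sum, 185 with no variance trend, 732 with the length trend removed, and 0 (without replicate 2, T98G) to 270 with 1 line left out, 149 without U251. Where 0 genes passed, limma gave 29, 2508, 2127 and 1206 at an unadjusted p under 0.05 with no replicate block, no filter, the same sum and without T98G. The share of higher calls was 20.6%, and 36.6% after centring. The chaperones' signs were not stable. With the same sum, changes turned to 0.056 for HSP90AA1, 0.15 for HSP90AB1, 0.051 for HSPB1, 0.097 for HSPD1 and 0.063 for HSPE1, with centring to 0.078 for HSP90AB1 and 0.026 for HSPD1, with the length trend removed to 0.016 for HSP90AB1, 0.030 for HSPB1 and 0.070 for HSPE1, and with pseudogenes summed to 0.00078 for HSP90AB1. With 1 line left out they ranged from −0.038 to 0.15 for HSPA1A, −0.018 to 0.21 for HSPA1B, −0.11 to 0.14 for HSP90AB1, −0.28 to 0.051 for HSPB1, −0.17 to 0.057 for HSPD1 and −0.26 to 0.044 for HSPE1. Between lines, the 7 chaperones called for T98G against LN-229 became 3 with no filter and 3 to 7 with 1 library left out (3 without LN-229 siHOTAIRM1, 4 without either T98G library), the lone library of a line being assumed to vary like the others. The 8 for U251 against LN-229 became 5 with the same sum, and fewer passed with any 1 library left out. The 6 for U251 against T98G became 5 with no filter and 7 with libraries centred on their median. Fewer passed there without U251 siHOTAIRM1. HSPA1A and HSPA1B passed under every alternative in both contrasts with LN-229. So did DNAJB1, HSPB1 and HSPE1 for U251 against LN-229, and HSPA1A, HSP90AA1, DNAJB1, HSPD1 and HSPE1 for U251 against T98G. Apart from the smaller set of genes or samples, the cause of these shifts was not tested.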

Other observations

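Relatives of the 10 chaperones also differed between the lines, and they are named here after their values were seen. CRYAB, a small heat shock protein of glia, lens and muscle, was at 44.7 and 46.9 CPM in U251, siControl first, and at most 0.116 CPM in the other 4 libraries (log2 difference of U251 to LN-229 5.44, adjusted p = 1.63e-25, limma). HSPA4L, an HSP110 relative of HSPH1, was at 44.4 and 36.0 CPM in LN-229 and 26.3 and 29.1 CPM in U251, but at 1.69 and 1.20 CPM in T98G (log2 difference of T98G to LN-229 −4.07, adjusted p = 9.88e-21). SERPINH1 was at 115 and 138 CPM in LN-229 and 111 and 105 CPM in T98G, against 19.1 and 20.9 CPM in U251 (log2 difference of U251 to LN-229 −2.60, adjusted p = 4.90e-15). HSPA12A, a distant HSP70 relative, was at 14.8 CPM in both LN-229 libraries, 7.60 and 6.71 CPM in T98G, and 0.211 and 0.316 CPM in U251 (−3.64 for U251 to LN-229, adjusted p = 8.04e-20). HSPA6, a strictly stress-inducible HSP70, did not pass the filter on low values and was at 0.211 to 1.72 CPM over the 6 libraries.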
